A study of Mus musculus with 8 samples.

Results

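A set of 8 genes that mark the alveolar type I (AT1) cell was followed by name through single-cell RNA sequencing (scRNAseq) of mouse lung: Ager, Hopx, Rtkn2, Aqp5, Pdpn, Clic5, Cav1 and Akap5. They are 8 of 33027 genes in the deposited matrix, and all 8 were found there under these symbols. The lungs came from Sftpc-CreERT2-mTmG mice, in which a tamoxifen-activated Cre, driven by the promoter of the surfactant gene Sftpc, switches a cell from the red reporter tdTomato to the green reporter eGFP. All 8 mice, littermates on a C57BL/6 background, received tamoxifen for 4 days at 8 to 10 weeks of age. From 2 weeks later, 4 of them breathed cigarette smoke (CS) over 10 months, 6 hours a day on 5 days a week, and the other 4 only room air (RA). Cells of the digested right lungs were sorted on the pan-leukocyte marker CD45 and loaded as 10% CD45+ and 90% CD45- cells. The mice are named C2, C5, D2 and D5 (CS) and F1, F3, M1 and M3 (RA), and each of 4 sequencing lanes held 1 CS and 1 RA mouse (C2 with F1, D2 with F3, C5 with M1, D5 with M3).

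AT1 cells are the thin, flat cells that cover most of the gas-exchange surface, and alveolar type II (AT2) cells, which make surfactant, act as their progenitors. Ager encodes RAGE, a receptor for S100 proteins, HMGB1 and glycated proteins that sits on the basolateral membrane of AT1 cells. Hopx is a homeodomain protein that does not bind DNA itself, Rtkn2 belongs to the rhotekin family, and Akap5 is a scaffold that anchors protein kinase A. Aqp5 is a water channel of the apical membrane, Pdpn (podoplanin, also called T1alpha) a mucin-like membrane glycoprotein, Clic5 a protein of the chloride intracellular channel family, and Cav1 the main coat protein of caveolae. Loss of AT1 cells is a feature of emphysema, the destruction of alveolar walls that follows long exposure to smoke, and the comparison here asks how these genes differed between CS and RA mice in AT1, AT2 and other cells.

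The matrix holds counts of unique molecular identifiers (UMIs), each 1 captured transcript, that the authors corrected for free RNA. After this correction most values are fractions (1.28% are whole). A gene is called found, held or detected in a cell where its corrected count is positive, however small. Total UMIs per mouse ran from 31882952 to 55485617, and cells that the authors labelled multiplet or cell cycle were left out. The authors' annotation left 32 cell types, among them 975 AT1 cells (50 to 173 per mouse) and 1881 AT2 cells (71 to 559 per mouse), and 197 barcodes occurred in more than 1 library. Transcripts of the sex chromosomes went against the labelled sex in all 4 CS libraries and in none of the 4 RA libraries. C2 and C5, labelled male, expressed Xist (7.83 and 8.34 per 10,000), and D2 and D5, labelled female, expressed Ddx3y of the Y chromosome (0.925 and 1.08). Of the RA libraries, F1 and F3 expressed Xist (5.58 and 6.71) and M1 and M3 expressed Ddx3y (1.01 and 0.955). By these transcripts each group held both sexes. As labels and transcripts disagreed, sex was not used as a term, and its part in the values was not tested. Each CS library was left out in turn, since without all 4 no CS mouse would remain. Values are transcripts per 10,000 UMIs of a cell, averaged over the cells of a type in a mouse, and n is the number of mice.

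The labels AT1 and AT2 were set beside marker lists other than the 8 genes. The authors named the types by known markers in clusters of these same cells, so the values describe the labels and do not test them. The summed level of 20 other AT1 markers was 382 to 424 in AT1 cells and 32.7 to 40.0 in AT2 cells over the 8 mice. The summed level of 20 AT2 markers was 12.1 to 36.7 in AT1 cells and 1955 to 2339 in AT2 cells. In AT1 cells immune markers summed to at most 0.641, mesenchymal markers to at most 0.319 and endothelial markers to 1.02 to 1.88 (CS) and 0.348 to 2.52 (RA). Airway markers in AT1 cells varied widely between mice, from 9.86 to 73.3 (CS) and from 0.0491 to 49.4 (RA). In AT2 cells airway markers summed to 26.4 to 83.7 and endothelial markers to 1.86 to 7.04, and 789 of the 1881 AT2 cells held no transcript of Ptprc (CD45) or Pecam1 (an endothelial marker).

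On GRCm38 the genes lie on 7 chromosomes. Ager spans positions 34597862 to 34600936 and Clic5 positions 44188584 to 44280172, both on the plus strand of chromosome 17. Hopx is on chromosome 5 from 77086988 to 77115121 (minus strand), Pdpn on chromosome 4 from 143267431 to 143299564 (minus strand), and Rtkn2 on chromosome 10 from 67979570 to 68059740. Aqp5 lies on chromosome 15 from 99590782 to 99594829, Cav1 on chromosome 6 from 17306335 to 17341452, and Akap5 on chromosome 12 from 76324891 to 76334153, all on the plus strand, as is Rtkn2. Antisense genes overlap exons of 3 of them, Hopxos that of Hopx, Gm16212 that of Rtkn2 and Gm15581 that of Cav1. Whether strand was used in counting is not given in the sources used here, so these 3 are the ones whose counts an antisense transcript could share.

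The 8 genes differ in how far they are restricted to AT1 cells, and the DNA just before their start sites is shown for 2 genes of each kind. These are Ager and Akap5, highest by far in AT1 cells, and Cav1 and Clic5, shared with endothelium. Each run is the 250 bases before a RefSeq start site of the gene on GRCm38.p6, in the direction of transcription (Ager chr17:34597600-34597849, Akap5 chr12:76324641-76324890, Cav1 chr6:17306085-17306334, Clic5 chr17:44188322-44188571), with every match to a searched motif in capitals.
Ager: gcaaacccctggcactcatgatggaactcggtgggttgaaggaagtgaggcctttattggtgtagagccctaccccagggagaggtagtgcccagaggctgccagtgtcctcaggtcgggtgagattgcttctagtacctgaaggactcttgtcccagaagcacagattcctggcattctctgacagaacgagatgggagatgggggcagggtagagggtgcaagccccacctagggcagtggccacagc
Akap5: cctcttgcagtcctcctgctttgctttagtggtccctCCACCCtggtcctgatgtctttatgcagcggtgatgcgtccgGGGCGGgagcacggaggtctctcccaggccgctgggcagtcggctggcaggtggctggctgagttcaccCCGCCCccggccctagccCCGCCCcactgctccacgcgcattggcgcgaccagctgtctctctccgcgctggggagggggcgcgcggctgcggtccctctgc
Cav1: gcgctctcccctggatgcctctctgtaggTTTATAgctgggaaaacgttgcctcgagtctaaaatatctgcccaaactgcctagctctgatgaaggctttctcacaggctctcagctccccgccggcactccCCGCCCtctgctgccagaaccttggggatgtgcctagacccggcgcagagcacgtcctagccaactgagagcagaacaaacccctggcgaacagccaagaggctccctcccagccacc
Clic5: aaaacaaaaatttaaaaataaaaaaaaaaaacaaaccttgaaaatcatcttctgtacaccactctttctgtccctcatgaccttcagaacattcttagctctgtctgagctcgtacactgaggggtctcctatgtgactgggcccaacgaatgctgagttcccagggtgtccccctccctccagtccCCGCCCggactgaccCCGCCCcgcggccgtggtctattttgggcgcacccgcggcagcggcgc
A set of 7 motifs was searched on both strands by their letters: GGAATG for TEAD factors, AGATAA for GATA factors, CACTTGA for NKX2-1, TGACTCA for AP-1, CCACCC for KLF factors, GGGCGG for the GC box and TATAAA for the TATA box. Over the 9 windows known for 7 of the genes, none held the TEAD, GATA, NKX2-1 or AP-1 letters, which 12.6%, 9.99%, 2.68% and 4.46% of 32851 windows of the same length hold. The GC box, held by 32.7% of all windows, was in 4 of the 9, those of Akap5 (3 matches, from 171, 102 and 84 bases upstream), Aqp5 (2 matches), Clic5 (63 and 48 bases upstream) and the first Cav1 window (118 bases upstream). The Aqp5 window, from 99590778 to 99591027, precedes a RefSeq start site but lies almost wholly inside the span of the gene given above. The Akap5 window also held the KLF letters (28.1% of all windows), and the first Cav1 window a TATA match 221 bases upstream (12.4%). The Ager window held no match. These are matches of letters, and nothing about binding was measured.

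Across the 32 cell types, every one of the 8 genes had its highest level in AT1 cells, as a mean over mice. The types were named from clusters in which these genes took part, so the order is a description and was not tested. Of the 31 other types, none reached 1 transcript per 10,000 for Rtkn2 or Akap5, whereas 12 did for Cav1, 7 for Hopx, 6 for Clic5, 4 each for Aqp5 and Pdpn and 2 for Ager.

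**Figure D1:**
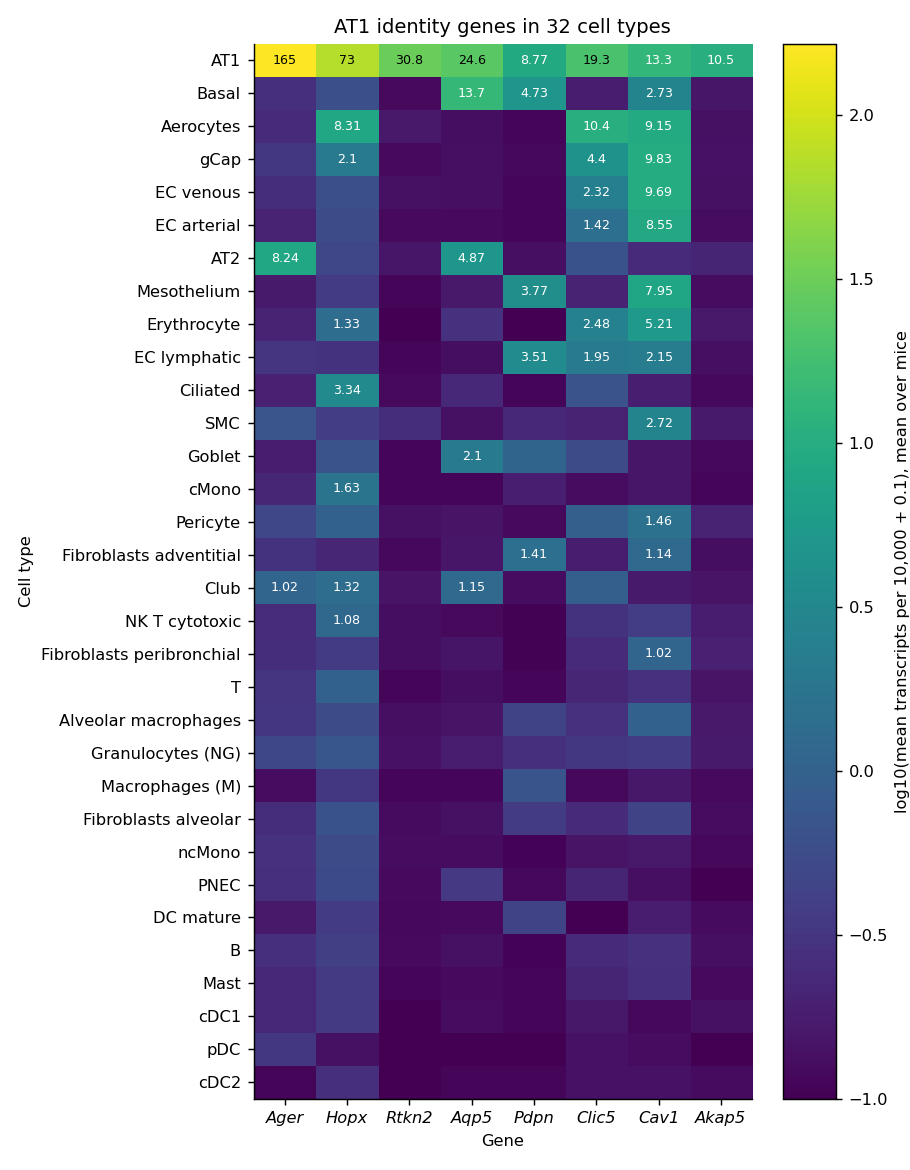
Mean level of the 8 genes (columns) in 32 cell types (rows), colored by log10 of transcripts per 10,000 plus 0.1 and averaged over mice, with levels of at least 1 printed. The AT1 row is the highest in every column, Rtkn2 and Akap5 reach 1 in no other row, and Cav1 does so in 12.

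Rtkn2, Akap5 and Ager were the most restricted. Rtkn2 was at 30.8 ± 5.60 in AT1 cells (SD, n = 8) and at 0.166 ± 0.365 in smooth muscle cells, the next type, where 4 of 8 mice had none. That mean rests on M3, at 1.06 with 4 smooth muscle cells. Akap5 was at 10.5 ± 0.382 in AT1 cells, the smallest relative spread between mice of the 8 genes (a coefficient of variation of 3.64%), and at 0.112 ± 0.0518 in AT2 cells. The AT2 values of Akap5 overlapped over mice with those of pericytes, the next type, at 0.105 ± 0.223. Ager was at 165 ± 18.7 in AT1 cells, 8.24 ± 1.17 in AT2 cells and 1.02 ± 0.553 in club cells, the secretory cells of the airway. Within a mouse, Ager was 15.9 to 29.4 times higher in AT1 than in AT2 cells. Below club cells, the next types (smooth muscle cells and granulocytes) overlapped with them over mice.

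Hopx and Clic5 were shared with alveolar capillaries. Hopx was at 73.0 ± 13.4 in AT1 cells and at 8.31 ± 2.04 in aerocytes, the large capillary cells that face AT1 cells across the air-blood barrier, followed by 3.34 ± 0.622 in ciliated cells and 2.10 ± 0.397 in general capillary (gCap) cells. Clic5 was at 19.3 ± 2.84 in AT1 cells, 10.4 ± 1.04 in aerocytes and 4.40 ± 0.561 in gCap cells. The AT1 level exceeded the aerocyte level of the same mouse 7.63 to 10.4 times for Hopx and 1.53 to 2.49 times for Clic5. For both genes AT1 cells and aerocytes did not overlap over mice.

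Cav1 was close to evenly shared with endothelium. Its level was 13.3 ± 2.44 in AT1 cells, 9.83 ± 0.593 in gCap cells, 9.69 ± 1.01 in venous, 9.15 ± 1.04 in aerocytes and 8.55 ± 1.63 in arterial endothelial cells. The ranges over mice of AT1 and gCap cells overlapped, and the ratio within a mouse ran from 0.949 to 1.83. Mesothelium, the lining of the pleura, followed at 7.95.

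Aqp5 and Pdpn were shared with other epithelium and with lining cells. Aqp5 was at 24.6 ± 3.41 in AT1 cells, 13.7 ± 3.55 in basal cells of the airway, 4.87 ± 0.830 in AT2 cells and 2.10 ± 0.387 in goblet cells. Pdpn was at 8.77 ± 0.968 in AT1 cells, 4.73 ± 1.75 in basal cells, 3.77 ± 0.585 in mesothelium and 3.51 ± 0.826 in lymphatic endothelium, the vessel type that this gene is also used to mark. AT1 and basal cells overlapped over mice for Pdpn and did not for Aqp5. The basal group held 192 cells, 10 to 37 per mouse.

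Likeness of pattern was measured as Pearson's r across the 32 types on log2 of the level plus 1, among 7607 genes that reach 1 per 10,000 in some type. The types share libraries and depth, and r is given as a description. Rtkn2 and Akap5 were each the closest gene to the other (r = 0.998), followed for both by Slc22a22 and 2210011C24Rik. The genes most like Ager were Cldn18 (r = 0.953), a tight junction claudin at 29.5 in AT1 and 7.83 in AT2 cells, then Popdc3, Scd2, Wnt3a and Mthfd1 (r = 0.944, 0.941, 0.934 and 0.933). With a pseudocount of 0.1, Scd2 (rank 11) and Mthfd1 (rank 9) were no longer among the closest 5. Cav1 was closest to Cavin2 (r = 0.914) and Cav2 (r = 0.906), which also build caveolae, and to Lims2 (r = 0.906), of which only Lims2 stayed among the closest 3 with a pseudocount of 0.1. Hopx was closest to Cdkn2b, Fgf1 and Paqr7 (r from 0.888 to 0.934), Clic5 to Rnf215, Trim16 and Prkd1 (0.888 to 0.908; none of these 3 with a pseudocount of 0.1), and among the genes closest to Aqp5 were Mal2 and Pof1b (0.938 and 0.921). For Pdpn no gene came as close: the leading ones were Adamtsl1 (r = 0.818) and the basement membrane collagens Col4a3 and Col4a4 (0.770 and 0.768). Among the 8 genes themselves, Aqp5 and Cav1 were least alike (r = 0.233).

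Within single AT1 cells the 8 genes were found together. A median of 8 of 8 was detected per cell, 92.4% of the 975 cells held all 8, and 99.6% held at least 6. For Ager, the 10th percentile of AT1 cells was 93.5 and the 90th 237 per 10,000. Only 1 of 1881 AT2 cells, in RA mouse M3, had a summed level of the 8 genes at or above the 5th percentile of AT1 cells (182 per 10,000). The labels came from clusters in which these genes took part, so these counts are a description. They do not show that intermediate cells are absent.

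In AT2 cells, Ager and Aqp5 were found in most cells and each of the other 6 genes in 34.0% of cells or fewer. Ager was detected in 94.5% of AT2 cells, at a median of 11684 UMIs a cell, and in 7.03% of B cells, which should lack it, at a median of 4055 UMIs. At an equal depth of 2000 UMIs, leaving out 43 AT2 and 277 B cells that were shallower, the expected share with an Ager transcript was 66.8% of AT2 cells and 1.96% of B cells. For Aqp5, found in 93.0% of AT2 and 1.41% of B cells, it was 53.6% and 0.515%. Hopx, found in 21.7% of AT2 and 11.6% of B cells, had expected shares of 4.38% and 4.23% at 2000 UMIs, and Cav1 2.39% and 2.56%, so that neither stood clearly above B cells. Clic5, found in 34.0% of AT2 and 4.24% of B cells, reached 7.59% against 1.92% at 2000 UMIs, Akap5 1.96% against 0.583%, Rtkn2 0.999% against 0.294% and Pdpn 0.626% against 0.199%.

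**Figure D2:**
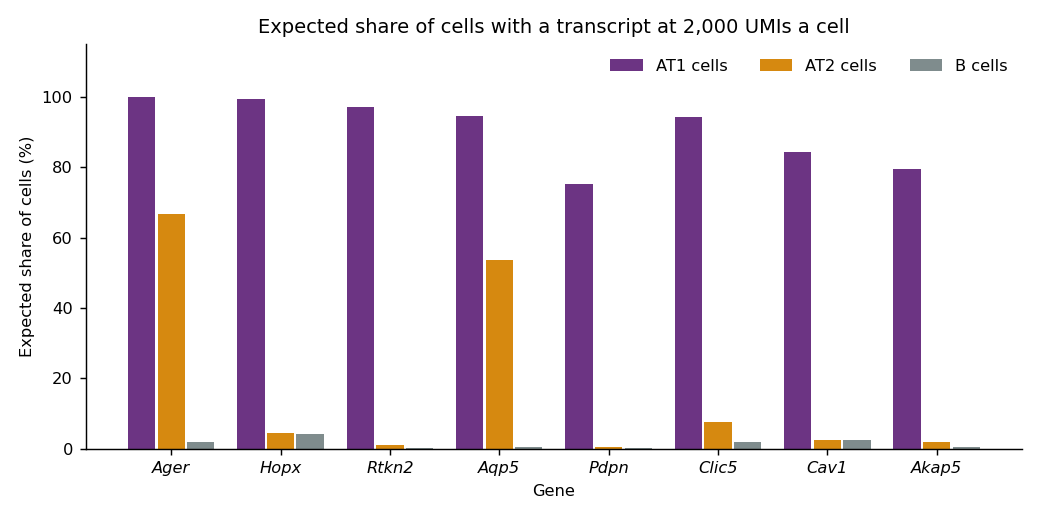
Expected share of cells, in percent, with at least 1 transcript of each gene at 2000 UMIs a cell, for AT1, AT2 and B cells of all mice together. Ager and Aqp5 reach 66.8% and 53.6% of AT2 cells, and the other genes stay at or under 7.59% there.

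The proportions of the 8 genes also differed between AT1 and AT2 cells. In AT1 cells the Aqp5 level was 14.9% and the Hopx level 44.3% of the Ager level, in UMIs. In AT2 cells the corresponding values were 59.1% and 4.71%. In AT2 cells with no Ager transcript (103 cells), Aqp5 was still at 3.92 per 10,000, against 4.91 in the 1778 AT2 cells with Ager.

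Between CS and RA mice, none of the 8 genes passed the threshold in AT1 cells. By limma on log2 of the mouse mean plus 1, with Benjamini-Hochberg adjustment over the 8873 genes tested in AT1 cells, 0 of 8 had an adjusted p under 0.05 and 1 had an unadjusted p under 0.05, Cav1. Over all 8873 genes the same test called 2.38%, and 1560 had an unadjusted p under 0.05. Thus 1 of 8 did not exceed the share of all genes. The CS and RA mice overlapped for all 8 genes, whereas they did not for 10.9% of the genes tested. Fewer AT1 cells and less RNA per cell are separate quantities here. AT1 cells made up 2.59% ± 0.322 (CS) against 2.22% ± 0.597 (RA) of cells (SD over 4 mice each), an exact two-sided permutation p of 0.314, where 4 against 4 mice allow no p under 0.0286.

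Cav1 had the largest difference of the 8 genes in AT1 cells. Its AT1 level was 14.2 in C2, 11.6 in C5, 10.96 in D2 and 9.97 in D5, and 16.9 in F1, 16.0 in F3, 12.7 in M1 and 14.3 in M3. The CS mouse was the lower one in 4 of 4 lanes, a count within lanes and not a pairing of animals. The groups overlapped through C2, the highest CS mouse. Within both groups the libraries with Xist (C2, C5, F1 and F3) lay above those with Ddx3y (D2, D5, M1 and M3). In AT1 cells the same order held for Ager and Akap5 and for none of the other genes. It was seen after the values were known and was not tested. The group means were 11.7 ± 1.80 (CS) against 14.9 ± 1.87 (RA; SD, n = 4). The log2 difference was -0.33 (SE 0.132), a fold of 0.793 with a 95% interval from 0.653 to 0.964, an unadjusted limma p of 0.0226 and an adjusted p of 0.198.

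Ager, in AT1 cells, stood at 155 in C2, 168 in C5, 154 in D2 and 138 in D5, against 200.2 in F1, 180 in F3, 160 in M1 and 161 in M3. The CS mouse was lower in 3 of 4 lanes, with C5 above M1 in the other lane. The log2 difference was -0.19 (SE 0.105, limma adjusted p = 0.380). The fold of 0.880 had a 95% interval from 0.753 to 1.03, which includes no change. Without F1, the highest mouse, the log2 difference was -0.12.

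Hopx and Aqp5 had differences of the same direction and size as Ager. Hopx was at 71.2, 74.5, 69.0 and 56.0 in C2, C5, D2 and D5, and at 93.0, 54.5, 79.8 and 85.9 in F1, F3, M1 and M3, so that the lowest of the 8 mice was the RA mouse F3. Aqp5 was at 25.2, 22.3, 24.6 and 19.5 in the CS mice and at 23.8, 31.0, 23.2 and 27.2 in the RA mice, in the same order. The folds were 0.877 for Hopx (95% interval 0.699 to 1.10, limma adjusted p = 0.561) and 0.877 for Aqp5 (0.724 to 1.06, adjusted p = 0.484). Both intervals include no change. Both differences (-0.19 each) moved with single mice: that of Hopx was -0.35 without F3 (adjusted p = 0.184) and -0.10 without F1 or without D5, and that of Aqp5 was -0.11 without F3 and -0.12 without D5.

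Clic5 and Pdpn had differences of the opposite sign. Clic5 was at 23.1 in C2, 23.0 in C5, 17.6 in D2 and 20.5 in D5, and at 14.7 in F1, 19.1 in F3, 18.3 in M1 and 18.0 in M3, higher in the CS mouse of 3 of 4 lanes. Its fold was 1.19 (95% interval 0.984 to 1.44, limma adjusted p = 0.326). Pdpn was at 9.74, 8.93, 9.91 and 8.55 in C2, C5, D2 and D5 and at 9.62, 7.85, 7.17 and 8.41 in F1, F3, M1 and M3. Although each lane's CS mouse was the higher one, the fold was 1.11 (0.941 to 1.32, adjusted p = 0.511), and without M1 the log2 difference went from 0.16 to 0.0971.

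Akap5 and Rtkn2 differed least between the groups. Akap5 was at 10.5, 10.9, 9.94 and 10.1 in the CS mice and at 10.5, 11.1, 10.4 and 10.5 in the RA mice, a fold of 0.979 (95% interval 0.841 to 1.14, limma adjusted p = 0.908). Rtkn2 was at 28.9, 26.8, 30.3 and 34.0 in C2, C5, D2 and D5, and at 19.7 in F1 against 36.2, 35.3 and 35.0 in the other RA mice. Its fold of 0.975 (0.757 to 1.25, adjusted p = 0.938) rested on F1. Without F1 the log2 difference was -0.24 (adjusted p = 0.263). F1 was also the highest or lowest of the 8 mice for Ager, Hopx, Clic5 and Cav1, which makes 5 of the 8 genes. How often F1 was so over all tested genes was not counted, and the 5 are not read as a result about these genes.

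**Figure D3:**
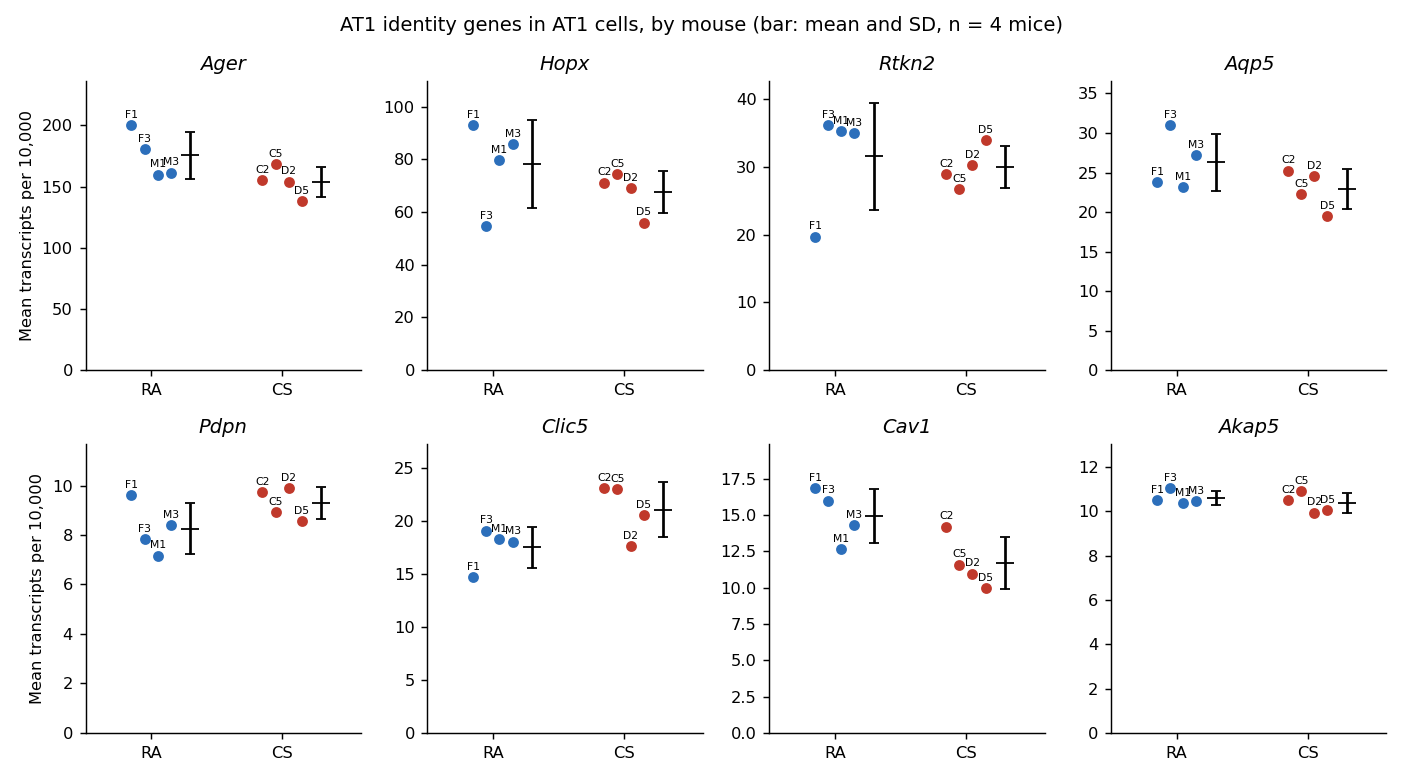
Level of each gene in AT1 cells (transcripts per 10,000, vertical axis from 0) for each RA (blue) and CS (red) mouse, with the group mean and SD in black. The groups overlap in every panel, F1 stands apart at 19.7 for Rtkn2, and the Akap5 values lie between 9.94 and 11.1.

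A measure outside the 8 genes did separate the groups in AT1 cells. The mean share of mitochondrial UMIs, from the authors' cell table, was 2.63% ± 0.459 (CS) against 1.76% ± 0.158 (RA; SD, n = 4, exact two-sided permutation p = 0.0286, the smallest possible), with CS mice from 2.13% to 3.16% and RA mice from 1.58% to 1.92%. Its part in the AT1 values, those of the gene lists included, was not tested. The median depth of AT1 cells ran from 8346 to 12857 UMIs (CS) and from 9708 to 17293 UMIs (RA; exact permutation p = 0.543).

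In AT2 cells, 6 of the 8 genes were found in enough cells to be tested, and Rtkn2 and Pdpn were not. None of the 6 passed among 9032 genes, of which limma called 0%, with 671 genes at an unadjusted p under 0.05, among them Aqp5. Aqp5 was at 4.29, 3.82, 4.89 and 4.11 in C2, C5, D2 and D5 and at 5.88, 4.64, 5.15 and 6.16 in F1, F3, M1 and M3. The groups overlapped through D2 and F3. The fold was 0.819 (95% interval 0.695 to 0.964, unadjusted p = 0.0208, adjusted p = 0.635). Ager in AT2 cells was at 8.93, 7.78, 8.03 and 6.86 in the CS mice and 6.80, 9.30, 8.02 and 10.2 in the RA mice, a fold of 0.935 (0.766 to 1.14, adjusted p = 0.903), with the lowest value in F1 and the highest in M3. In M3, 1 of 71 AT2 cells, the one with AT1-like levels named above, held Ager at 116 and so raised the M3 mean. The log2 difference of -0.10 was -0.19 without F1 and -0.0181 without M3. No gene of the 6 had groups that did not overlap, against 4.57% of the genes tested.

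**Figure D4:**
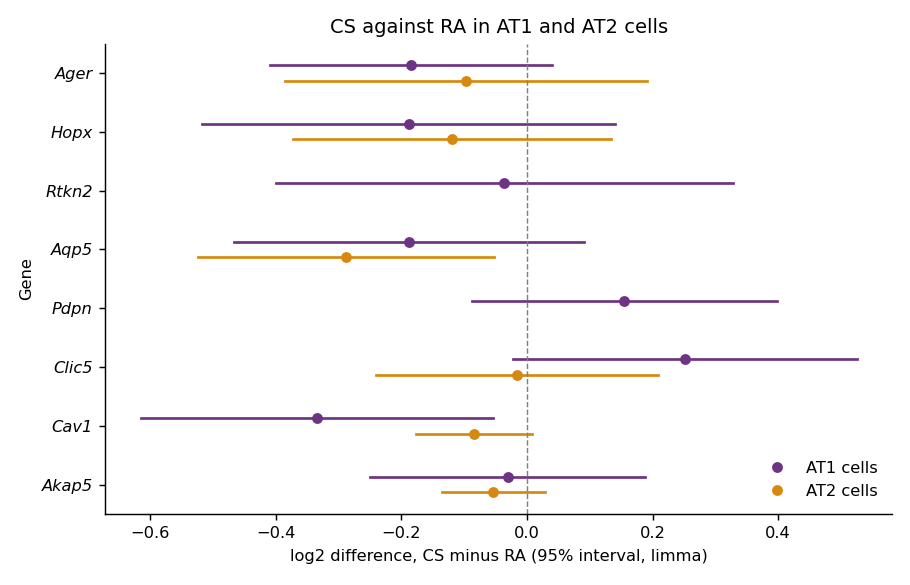
Log2 difference between CS and RA mice (horizontal axis, points with 95% intervals from limma) for each gene in AT1 (purple) and AT2 cells (orange, 6 genes tested). The intervals of Cav1 in AT1 cells and of Aqp5 in AT2 cells lie below 0, and neither passed the adjustment over all genes.

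The test of whether the CS effect differed between AT1 and AT2 cells, made on the difference of log2 levels within each mouse, called none of the 6 genes and 1.55% of the 7803 genes tested. Of these 7803 genes, 1070 had an unadjusted p under 0.05. Among the 6 genes, Cav1 had the lowest unadjusted limma p (0.0471, adjusted p = 0.355), with a difference of -0.25 that turned to 0.0366 with a pseudocount of 0.1 in place of 1, and Clic5 came next at 0.27 (adjusted p = 0.391). Cav1 entered the test in AT2 cells only through the RA mice, with 11.7% of their AT2 cells holding it against 8.37% in CS mice, and its share there was not above that in B cells. The other 4 genes lay between -0.09 and 0.10. In AT2 cells Hopx, Clic5, Cav1 and Akap5 were each under 1 per 10,000 in every mouse (at most 0.996, Clic5 in M3). With 1 added before the log2, differences at such levels are compressed. For these genes a value near 0 therefore cannot show that the CS effects in AT1 and AT2 cells were alike.

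Outside alveolar epithelium, 20 types had enough cells and mice, and 19 of them had at least 1 of the 8 genes to test. Of these 55 tests 0 passed the adjusted limma threshold, against 1.24% of all tests in the 20 types, and 8 had an unadjusted p under 0.05. Many other genes of the types that held these 8 did so too. They were 2672 of 11077 in ciliated, 2312 of 6556 in gCap and 1173 of 7920 in arterial endothelial cells. In mesothelium they were 1536 of 11115, in goblet cells 1506 of 11842 and in club cells 1200 of 11575. The 8 are therefore not read as a result about these genes. Pdpn in goblet cells, the mucus-secreting cells of the airway, came closest to the adjusted threshold, in a type where limma called 0.177% of 11842 genes. Its level was 0.476 in C2, 0.281 in C5, 0.575 in D2 and 0.629 in D5, and 0.813 in F1, 1.70 in F3, 1.37 in M1 and 2.08 in M3. All 4 CS mice were below all 4 RA mice, with 23 to 71 goblet cells per CS mouse and 25 to 137 per RA mouse, and the groups did not overlap for 8.51% of the genes tested in goblet cells. The log2 difference was -0.72 (SE 0.139, limma adjusted p = 0.0577). This is a fold of 0.607 in the level plus 1 (95% interval 0.494 to 0.746), which understates the fold of so low a level. With the lane as a replicate block the adjusted p was 0.0367, and with a pseudocount of 0.1 the difference was -1.40 (adjusted p = 0.0473). Over 15 alternatives the adjusted p ran from 0.0172 to 0.341.

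Pdpn was also compared in the types with more of it than goblet cells. In mesothelium, where C2 had 9 cells and was left out of the fit, the log2 difference was -0.27 (limma unadjusted p = 0.0288, adjusted p = 0.303). Basal cells of the CS mice were at 3.20 to 3.84 and those of the RA mice at 4.04 to 7.99, and no test was made, since only 1 RA mouse had 20 basal cells. The groups did not overlap for 5.53% of the genes found in at least 10% of a group's basal cells. In adventitial fibroblasts, at 1.41, the log2 difference was -0.16 (limma adjusted p = 0.531). Lymphatic endothelium overlapped, with 2.68 to 4.66 in CS and 2.97 to 4.84 in RA mice. In AT1 cells the sign of the Pdpn difference was the opposite, and the difference between types was not tested.

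**Figure D5:**
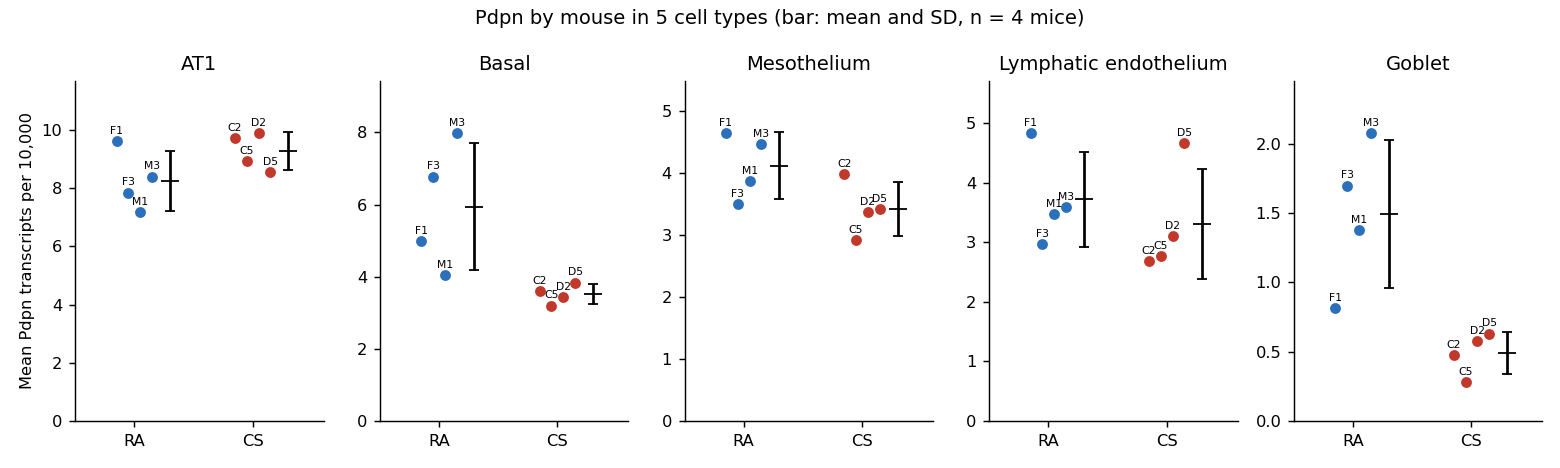
Pdpn level (transcripts per 10,000, vertical axes from 0 and separate) for each RA (blue) and CS (red) mouse in 5 cell types (AT1, basal, mesothelium, lymphatic endothelium and goblet), with the group mean and SD in black. Goblet and basal cells have all CS mice below all RA mice, and in AT1 cells the CS mean is the higher one.

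A further 6 tests had an unadjusted p under 0.05, as did many other genes of the same types, and they are given as a description. Cav1 in arterial endothelial cells was at 7.02, 8.24, 7.30 and 6.74 in C2, C5, D2 and D5 and at 10.7, 9.78, 10.7 and 7.87 in F1, F3, M1 and M3, a log2 difference of -0.37 (limma unadjusted p = 0.0191, adjusted p = 0.242), lower in the CS mouse of 4 of 4 lanes. Cav1 in ciliated cells had the opposite sign and a far lower level, 0.0833 to 0.124 in CS and 0.0512 to 0.0732 in RA mice (difference 0.06, unadjusted p = 0.00316, limma adjusted p = 0.0581). The groups did not overlap there, nor did they for 15.9% of the genes tested in ciliated cells. B cells, set beside AT2 cells above, held Cav1 at 0.184 over all their cells, more than the ciliated cells of any mouse. The ciliated values were thus not above that background. In gCap cells, which hold Cav1 at nearly the AT1 level, the difference was 0.05 (adjusted p = 0.738). Clic5 in gCap cells differed by 0.22 (adjusted p = 0.123), and in aerocytes, which hold more of it, by -0.09 (adjusted p = 0.649). Ager in club cells differed by 0.40 (adjusted p = 0.412), with C5 at 2.22 and the other mice between 0.483 and 1.33. The other 2 were at low level: Aqp5 in ciliated cells (0.06, adjusted p = 0.203, at most 0.222 per 10,000) and Ager in mesothelium (0.05, adjusted p = 0.342, at most 0.152). B cells held Aqp5 at 0.0366 and Ager at 0.176, so Ager in mesothelium was not above them.

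Other genes of the same pathways were counted in AT1 cells by lists, whose median log2 difference is read beside that of all 8873 genes (0.000399). Their counts of calls, here and below, are read beside the 2.38% of all genes called, at which short lists may hold none. Of 20 further AT1 markers, 19 were tested and none was called (median 0.10, 11 positive). The largest differences among them were those of Igfbp2, an insulin-like growth factor binding protein (0.87, limma adjusted p = 0.180), and Cyp4b1, a cytochrome P450 (-0.63, adjusted p = 0.119). In both, F1 was the extreme mouse. Igfbp2 was at 7.53 in F1 and 26.9 to 34.4 in the other RA mice, and Cyp4b1 at 34.1 in F1 and 14.9 to 16.1.

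Of 7 caveolae genes besides Cav1 that were tested, none was called (median -0.05, 3 positive). Cavin2, a caveolar coat protein, was at 13.1 ± 1.49 (CS) against 16.5 ± 3.20 (RA; SD, n = 4, log2 difference -0.30, limma adjusted p = 0.279). Cav2, the partner of Cav1, was at 3.98 ± 0.457 and 5.05 ± 0.789 (-0.28, adjusted p = 0.208). Cavin1 had the opposite sign (0.13), so the differences in the list were not in a common direction. Of 9 tested genes of RAGE ligands and signaling, none was called (median 0.01). The largest differences were those of Rela, an NF-kappaB subunit (-0.34, adjusted p = 0.451), and Adam10, a protease that sheds RAGE (0.31, adjusted p = 0.0877).

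Genes of the YAP/TAZ-TEAD axis, a mechanosensitive pathway known to take part in AT1 cell fate, held 2 of the 211 calls in AT1 cells. Of 13 tested, 2 were higher in CS AT1 cells and none lower, where 2.38% of all genes were called, with a median of 0.17 and 11 positive. The list was chosen with earlier results of these data known, so these counts are a description and no test of the pathway. Amotl2, an angiomotin family protein and known YAP target, rose from 1.93 ± 0.298 (RA) to 3.19 ± 0.198 (CS; SD, n = 4, log2 difference 0.52, limma adjusted p = 0.00655). Its CS mice were at 3.47, 3.14, 3.01 and 3.14 and its RA mice at 1.52, 1.96, 2.24 and 2.01, without overlap, as for 10.9% of the genes tested in AT1 cells. Ankrd1, another YAP target, rose from 0.783 ± 0.151 to 1.30 ± 0.143 (0.37, adjusted p = 0.0178). Ccn2 (0.49, adjusted p = 0.0585) and Tead1 (0.38, adjusted p = 0.112) did not pass. The Ankrd1 call was lost without D2 or without D5 (adjusted p = 0.0567 and 0.0570), and both calls were lost when no filter on genes was set.

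Among the other lists, 2 held 1 call each, beside the same 2.38% of all genes. Of 12 tested genes of transitional epithelium, the state between AT2 and AT1 cells, Itgb6, the subunit of an integrin that activates TGF-beta, rose from 3.16 ± 0.838 to 5.19 ± 0.914 (0.58, limma adjusted p = 0.0451). The list's median was -0.07, with 9 of 12 negative, and Krt8, its best-known keratin, was at -0.21 (adjusted p = 0.344). The Itgb6 call was lost in 9 of 16 alternatives, among them the omission of any 1 mouse other than M3 (adjusted p from 0.0505 to 0.126). Of 9 tested epithelial transcription factors, Foxa2 rose from 0.975 ± 0.183 to 1.52 ± 0.0993 (0.35, adjusted p = 0.0245), a call lost in 6 of 16 alternatives, and Nkx2-1, the lung lineage factor, was at 0.20 (adjusted p = 0.313).

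Markers of other cell types in AT1 cells were not called. Of 12 tested AT2 markers none passed (median -0.10), the largest differences being Lpcat1 (0.41, limma adjusted p = 0.0626) and Sftpa1 (-0.38, adjusted p = 0.331). Of 3 endothelial markers none passed (median -0.09), with Ramp2 at -0.11 and Cldn5 at -0.09, and the 1 airway marker tested, Scgb3a2, was at 0.23 (adjusted p = 0.736). No immune or mesenchymal marker was found in enough AT1 cells to be tested. In AT2 cells no gene was called in the 9 lists that had tested genes, and no immune or mesenchymal marker could be tested.

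The eGFP reporter, switched on in Sftpc-expressing cells and kept by their descendants, was looked at in AT1 cells. Its mean level there was 2.55 ± 1.47 (CS) against 2.39 ± 2.86 (RA; SD, n = 4, exact two-sided permutation p = 0.886). At or above the 5th percentile of AT2 cells (20.8 per 10,000) were 23 of 975 AT1 cells (2.36%), 0 to 7 per mouse. Besides AT2 cells, 4 types had a higher share, gCap cells (4.13%), peribronchial fibroblasts (3.17%), venous endothelial cells (2.64%) and erythrocytes (2.61%), and the remaining types lay between 0% and 2.01%. In these cells Ager was at 112, against 166 in the other 952, Hopx at 36.0 against 73.5, and Akap5 at 9.72 against 10.4. They also held Sftpc at 48.3 against 1.56 per 10,000, and whether they hold RNA of 2 cells was not tested. These cells were picked by their eGFP values, so the contrast is a description.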

How the data were processed

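Right lungs of 4 CS and 4 RA mice were profiled by scRNAseq. The authors trimmed reads, aligned them with STAR 2.7.3a (STARsolo) to GRCm38.p6, counted spliced and unspliced UMIs and removed free RNA with SoupX. The matrix they deposited holds these corrected, expected counts (1.28% of values are whole within 1e-06), with the percent of mitochondrial UMIs and the cell type of each cell in the deposited cell table. Each cell was scaled to 10,000 and averaged per mouse and type. A type was tested where 3 or more mice a group had 20 or more of its cells, and a gene where 10% or more of a group's cells held it, with limma 3.58.1 (R 4.3.3, trend) on log2(mean + 1), so folds of low genes are understated, and adjusted p under 0.05 was called. Total UMIs per mouse were 31882952 to 55485617. Single values were compared by exact permutation (Python 3.11.15). Gene positions were read from GENCODE M21 and upstream sequences from RefSeq tables (GRCm38.p6), with no entry used for Rtkn2. Named were the 8 genes, the 5 genes most like Ager and the 3 most like each other gene (1 gene close to Aqp5 is not reported here), and from each list the called genes or, with none called, the 2 with the largest difference; Cavin1, Ccn2, Tead1, Krt8 and Nkx2-1 were named after their values were seen. The genes and lists were chosen with earlier results of these data known.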

Additional observations from a re-analysis of the deposited data

Results flagged for a closer look

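In 38 groups of 4 mice a mouse was called outlying where its gap to the nearest other mouse, divided by the range of the group, passed Dixon's 95% critical value for 4 values, which chance passes in about 5% of groups. The test picked out 3. In AT1 cells, Rtkn2 was at 19.7 in RA mouse F1, while the next RA mouse was at 35.0 (a gap of 0.927 of the range). In AT2 cells, Rtkn2 was at 0.133 in RA mouse F3 and at 0.0392 in the next mouse, both at a level of few transcripts. The share of AT1 cells was 2.11% of all cells in CS mouse C2, against 2.71% in the next CS mouse. No difference of the CS effect between AT1 and AT2 cells passed its test for any of the 6 genes tested.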

How the results depend on the processing

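In AT1 cells, AT2 cells and the difference between them, the count of the 8 genes called stayed at 0 under every alternative. In the other types it went from 0 to 1, Pdpn in goblet cells, with a pseudocount of 0.1, genes in at least 25% of cells, the lane as a replicate block (52 tests), median centring, or cells of at least 2000 UMIs. Leaving out 1 mouse gave 0 to 1, with the call present without F1 (log2 difference -0.86, adjusted p = 0.0172). Over all 15 alternatives Pdpn in goblet cells ran from -1.40 to -0.61 (adjusted p from 0.0172 to 0.341). In AT1 cells 124 of 128 values kept their sign. Leaving out 1 mouse, Rtkn2 ran from -0.24 to 0.0404, positive without C5 (0.0144), F3, M1 or M3. In AT2 cells 92 of 97 kept it. Leaving out 1 mouse, Hopx ran from -0.20 to 0.0067, positive without M3 (-0.31 with a pseudocount of 0.1), and Clic5 from -0.0736 to 0.11, positive without D5 or M3, and was 0.0033 with a pseudocount of 0.1 and 0.0649 without cells holding Ptprc or Pecam1. In M3, 1 of 71 AT2 cells held Hopx at 48.4 and Clic5 at 20.9 and so raised both M3 means. In the AT1 minus AT2 difference 80 of 87 kept their sign. Leaving out 1 mouse, Ager ran from -0.21 to 0.0705, Hopx from -0.19 to 0.0313 and Akap5 from -0.0165 to 0.0470. Hopx was 0.115 and Cav1 0.0366 with a pseudocount of 0.1, and Akap5 -0.0048 with cells of at least 2000 UMIs. None of these values passed the threshold, and the cause was not tested. The difference in AT1 share stayed positive (0.152 to 0.615 percentage points leaving out 1 mouse; 0.609 among types outside blood and immune cells). AT1 was highest for 8 of 8 genes by summed counts and by expected share at 2000 UMIs, and for 7 by the share of cells as found (Aqp5: 98.4% of AT1 and 98.6% of basal cells), and 18 of 26 most alike genes stayed so with a pseudocount of 0.1.

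The mice of a lane have no known pairing besides the lane number, though by their transcripts C2 and F1, and D5 and M3, also shared sex. In AT1 cells the deviations of the mice of a lane correlated at -0.0346, -0.0910, -0.0775 and 0.124. With the lane as a replicate block 176 genes were called in AT1 cells in place of 211. The AT1 call count fell to 99 to 111 without any 1 CS mouse, to 144 and 143 without F1 and F3, and to 29 with no filter on genes, and was 273 with the 25% filter. AT1 values rest on 50 (M3) to 173 cells per mouse (D2).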
